A study of Mus musculus with 13 samples.

Results

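Transcript levels of the Tet1 allele V, whose TET1 protein is known to stall at 5-hydroxymethylcytosine, were compared with those of the wild type (WT) across every expressed gene. The comparison rests on 3 V and 3 WT libraries, 6 of the 12 libraries with counts. The other libraries, 3 of a knockout (KO) and 3 of HxD, known as an allele coding for a catalytically inactive TET1, entered the fit to estimate the spread between libraries. Every library was made from male primordial germ cells, the precursors of sperm, of mouse embryos at E14.5, sorted on an Oct4-GFP reporter that all 4 genotypes therefore carried, with RNA from 5000 cells. The labels name the genotypes only as WT, V, KO and HxD. The sources used here do not state strain, zygosity, litter or pooling of embryos. Since no label ties a replicate to an embryo of its own, the p-values speak for the variation among these libraries, part of which may be technical. Of the 35976 gene symbols counted, 14702 had enough reads to be tested.

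TET enzymes oxidise 5-methylcytosine stepwise, and the later oxidation products can be excised by base excision repair, whereas 5-hydroxymethylcytosine is mainly lost when DNA is copied. Primordial germ cells lose most of their DNA methylation independently of TET1, and TET1 is known to matter at imprinting control regions and at the promoters of germ cell genes, which other cells keep silent by methylation and by a non-canonical Polycomb complex, PRC1.6. In the fetal testis, germ cells at this age enter a mitotic arrest, turn down pluripotency genes and turn on the piRNA pathway, a small-RNA system that silences transposons. The comparison of V with WT asks what becomes of transcription when oxidation halts at its earliest product.

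A main list below holds 48 germ cell genes whose promoters are known to be methylated in somatic cells, 42 of them with enough reads to be tested. Promoters of the 5 members with the smallest p for V against WT are shown because this list is described first and in most detail. They are the 250 bases before the transcription start, 5′ to 3′ on the strand of the gene, from RefSeq's table for GRCm38.p6. Capitals mark CACGTG, the core E-box letters, and TCCCGC or its reverse complement, letters of E2F6-type sites, each searched on both strands.
Dazl, chr17:50293621-50293870, minus strand: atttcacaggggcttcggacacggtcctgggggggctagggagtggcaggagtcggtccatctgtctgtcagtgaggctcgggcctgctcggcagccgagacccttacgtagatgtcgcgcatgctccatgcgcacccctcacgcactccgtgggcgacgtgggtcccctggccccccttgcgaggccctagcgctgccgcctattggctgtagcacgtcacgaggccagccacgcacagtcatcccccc
Mael, chr1:166238745-166238994, minus strand: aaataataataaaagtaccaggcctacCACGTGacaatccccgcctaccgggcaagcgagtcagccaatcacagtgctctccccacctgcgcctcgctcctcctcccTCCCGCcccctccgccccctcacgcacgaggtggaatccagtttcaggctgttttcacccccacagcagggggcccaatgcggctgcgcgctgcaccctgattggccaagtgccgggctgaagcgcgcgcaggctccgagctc
Tex14, chr11:87404815-87405064, plus strand: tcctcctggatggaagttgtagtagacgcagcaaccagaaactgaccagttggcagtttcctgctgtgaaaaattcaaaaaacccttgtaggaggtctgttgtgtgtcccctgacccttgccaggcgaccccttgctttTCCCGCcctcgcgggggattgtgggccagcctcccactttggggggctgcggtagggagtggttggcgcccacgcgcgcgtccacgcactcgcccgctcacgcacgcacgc
Sycp1, chr3:102936101-102936350, minus strand: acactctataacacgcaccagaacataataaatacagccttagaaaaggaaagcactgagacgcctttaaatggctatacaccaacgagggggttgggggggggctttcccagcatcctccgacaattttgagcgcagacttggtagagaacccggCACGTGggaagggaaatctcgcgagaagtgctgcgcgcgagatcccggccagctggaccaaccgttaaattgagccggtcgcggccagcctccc
Mov10l1, chr15:88982744-88982993, plus strand: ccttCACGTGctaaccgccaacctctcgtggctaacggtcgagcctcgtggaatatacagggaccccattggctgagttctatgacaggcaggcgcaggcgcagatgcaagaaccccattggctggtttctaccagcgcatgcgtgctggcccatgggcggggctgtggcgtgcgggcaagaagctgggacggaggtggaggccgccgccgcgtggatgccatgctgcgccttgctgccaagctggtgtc
Dazl and Tex14 hold no CACGTG here, and Mael, Sycp1 and Mov10l1 each hold a single one. The wider window of 300 bases, 250 before and 50 after the start, was counted for the 36 listed genes with an entry in the table, and for 11346 of all 14702 genes tested (77.2%), so shares of all genes describe only those matched. CACGTG stood in 13 of the 36 windows (36.1%), against 11.6% of the windows of all genes. TCCCGC stood in 38.9%, against 39.3%, and the longer GCGGGAA, which overlaps its reverse complement, in 30.6%, against 9.83%. Both CACGTG and TCCCGC were present in 19.4%, against 4.41%. The median number of CpG sites was 19.5 per window, against 22. A match is a description of the letters and not a bound site, and PRC1.6 is known to hold factors that bind such letters (MGA with MAX, and E2F6).

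Total counts were 13584484 to 22238389 in V and 20213496 to 22858834 in WT. WT 3 and V 3 stood apart on principal components of all 12 libraries. WT 3 scored 175.5 on the first, against -60.92 to 69.05 for the others, and V 3 scored -169.1 on the third, against -10.72 to 76.88. Among the 9250 genes averaging at least 8 CPM (counts scaled to the size of the library after TMM normalisation, the unit of every level below), 104 had no read in WT 3 and 33 in V 3, against 0 to 3 in the other V and WT libraries and 0 to 36 in KO and HxD. V 1 had the highest summed level of mitochondrially encoded transcripts, 27038 CPM against 12032 to 17711 in the other V and WT libraries, and of ribosomal protein transcripts, 57033 against 38711 to 42104. The 10 germ cell markers were all detected in every group and summed to 4578 to 4903 CPM in V and 5190 to 5248 in WT. Dazl, a member of that sum, averaged 953 CPM in V and 1754 in WT. Of the 10 markers, 6 had a positive log2 fold change of V against WT and 4 a negative one, where 51.0% of all genes were positive. Their median was 0.12, against 0.01 for all genes. The 14 Sertoli cell markers summed to 462.1 CPM in V 2, against 21.2 to 143.1 in the other 5 libraries. Sox9, the defining marker, was at 0 in all WT and all HxD libraries and had 0.72, 9.14 and 2.72 CPM in V. It was 1 of 5 markers without a read in WT, whereas others, among them Amh, Aard and Wt1, had reads in every WT library. In such bulk samples, fewer cells of a type and less RNA per cell cannot be told apart.

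Tet1 itself, the edited gene, was transcribed in V. It had 596, 589 and 639 CPM in WT 1, 2 and 3, 364, 450.3 and 625 in V, 213, 201 and 225 in KO and 607, 735 and 536 in HxD. V and WT overlapped, because V 3 stood within the WT range (log2 fold change of V against WT -0.34, SE 0.17, edgeR adjusted p = 0.821). Counts per gene do not read the V or HxD sequence change, so they check the KO label and not these 2.

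Over all genes, edgeR's quasi-likelihood F-test called 0 of 14702 between V and WT (0.0%) at an adjusted p under 0.05, and the smallest adjusted p was 0.171. Genes below 0.05 before adjustment, called nominal from here on, numbered 890 (6.05%), with 419 higher in V (2.85%) and 471 lower (3.2%). Log2 fold changes were below 0 for 48.9% of genes and above 0 for 51.0%. The 3 V libraries lay entirely below the 3 WT libraries for 891 genes (6.06%) and entirely above for 845 (5.75%). DESeq2 called 42 genes higher (0.286%) and 39 lower (0.265%), and 39 of these 81 had a group without a single read. For genes averaging at least 8 CPM, the 95% interval of the log2 fold change reached a median of 0.61 to each side, with wider and narrower intervals for single genes. Every V against WT difference given below is a measured value that missed the threshold of the main test, unless another test is named.

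**Figure D1:**
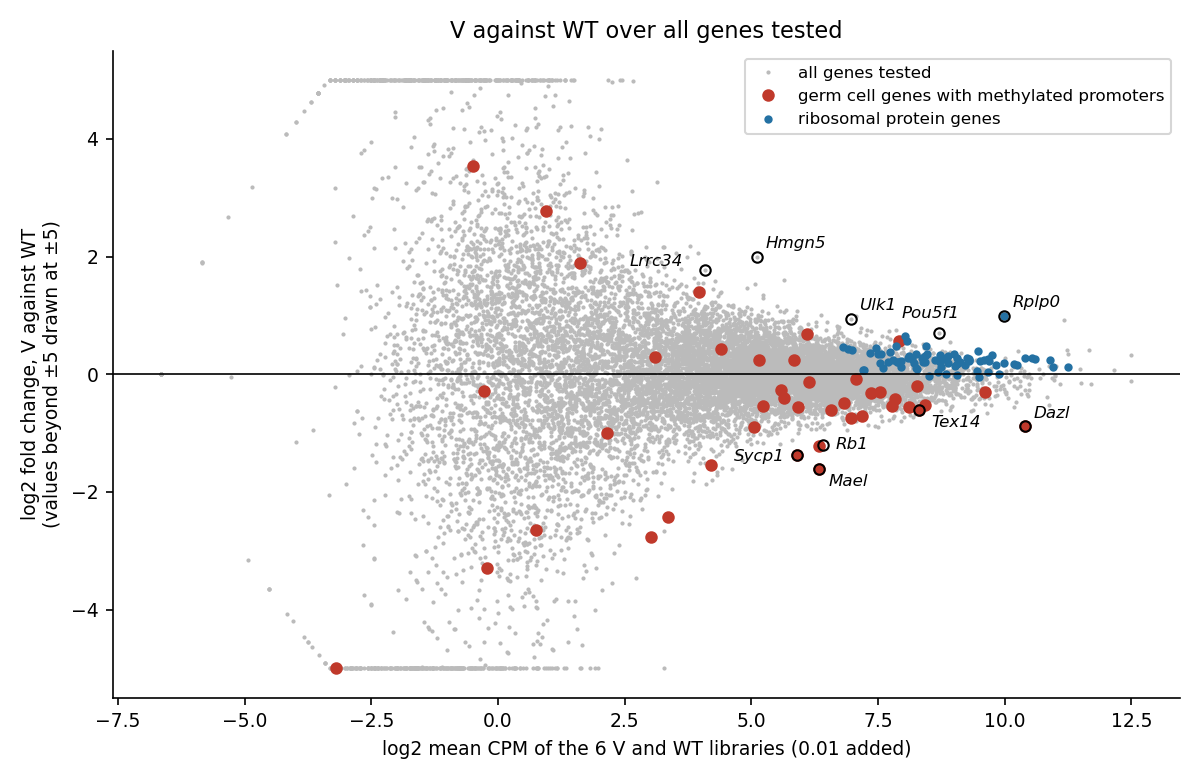
Log2 fold change of V against WT (vertical axis) against the log2 mean CPM of the 6 libraries (horizontal axis, 0.01 added) for the 14702 genes tested; circled genes are named. Red points, the 42 tested germ cell genes with methylated promoters, lie mostly below 0 (32 of 42), and blue points, the 77 ribosomal protein genes, mostly above 0 (72 of 77).

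Among germ cell genes with methylated promoters, 32 of the 42 tested had a negative log2 fold change and 10 a positive one, with a median of -0.50, where 48.9% of all genes were negative and the median of all genes was 0.01. Nominally lower values were found for 12 members (3.2% of all genes) and nominally higher values for 3 (2.85% of all genes), and the V libraries lay entirely below WT for 11 (6.06% of all genes) and entirely above for 1 (5.75%). Dazl, which codes for an RNA-binding protein that licenses germ cells for sexual differentiation, had 1753, 1605 and 1906 CPM in WT and 1015, 672 and 1172 in V. All 3 V libraries were below all 3 WT libraries, and the mean was 953 ± 255 against 1754 ± 150 (SD, n = 3; log2 fold change -0.88, SE 0.19, edgeR adjusted p = 0.19). Mael, a piRNA pathway factor needed to silence transposons in spermatocytes, had 173, 100.5 and 89.6 CPM in WT and 31.0, 34.9 and 52.9 in V, again without overlap (-1.61, SE 0.38, edgeR adjusted p = 0.293). Tex14, needed for the intercellular bridges that join sister germ cells, had 406, 346 and 391 CPM in WT and 245, 251 and 249.996 in V, a narrow range in each group (-0.62, SE 0.15, edgeR adjusted p = 0.411). DESeq2 called Mael (adjusted p = 0.014) and Tex14 (adjusted p = 0.000389), and not Dazl (adjusted p = 0.0954). Of 15 alternative fits, DESeq2 among them, 5 called Dazl, 4 called Mael and 1, DESeq2 itself, called Tex14.

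**Figure D2:**
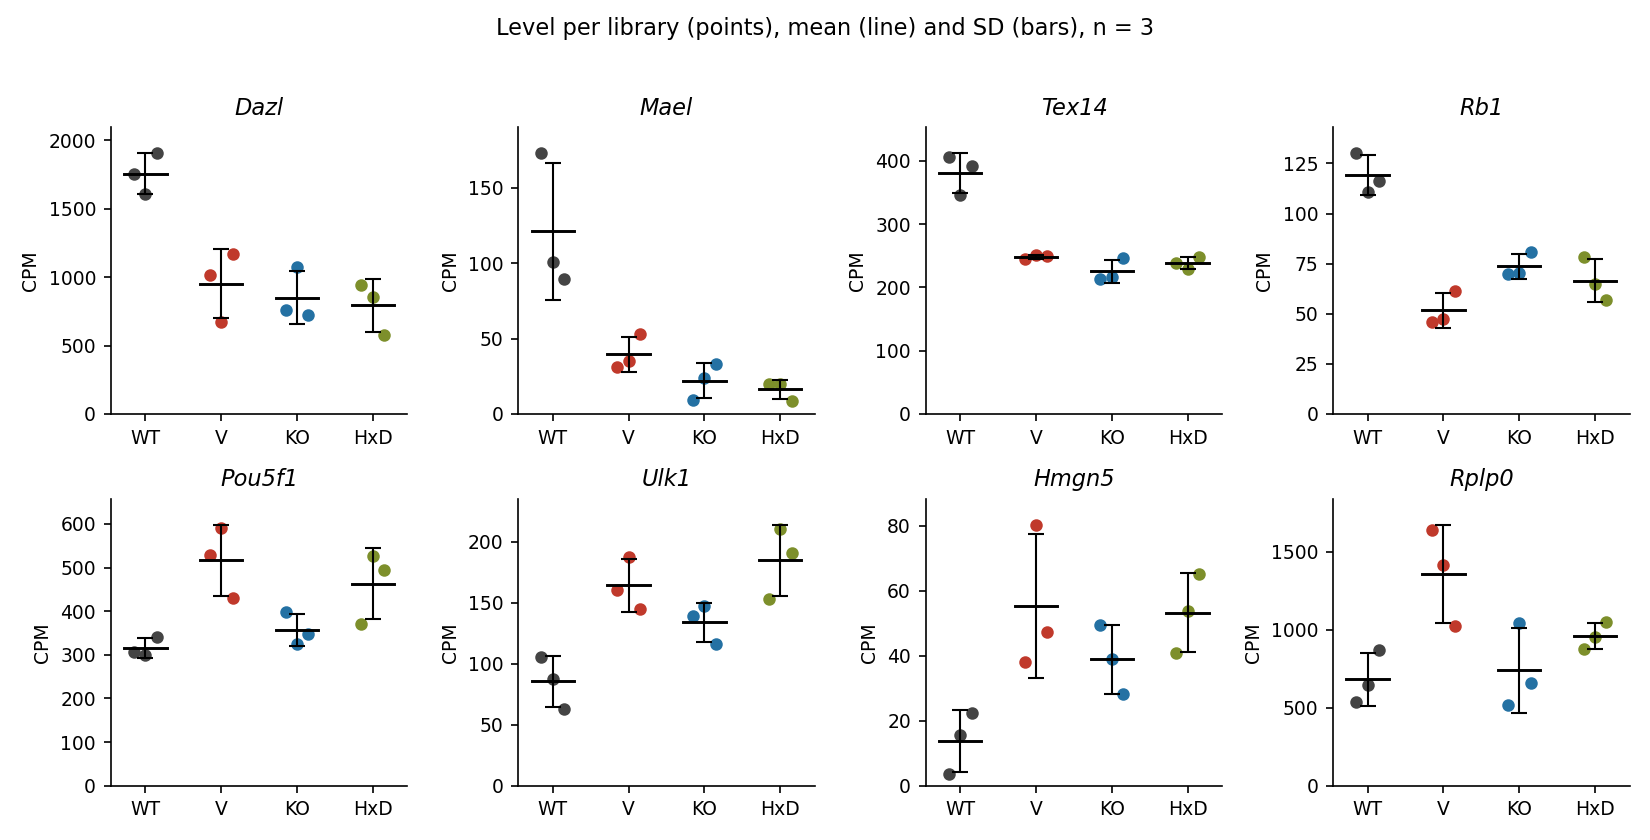
Level in CPM (vertical axis, from 0) of 8 genes in each library of WT, V, KO and HxD; points are libraries, lines the means and bars the SD (n = 3). In Dazl, Mael, Tex14 and Rb1 the V points lie below all WT points, and in Pou5f1, Ulk1, Hmgn5 and Rplp0 above them.

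The size of this pattern differed between libraries. The median of the list, as the log2 ratio of CPM + 1 to the WT mean, was -0.45 in V 1, -0.63 in V 2 and -0.27 in V 3. The WT libraries did not agree among themselves, with 0.31 in WT 1 and -0.14 in both WT 2 and WT 3. Every V library was below every WT library, and V 3 was the closest. The median fold change of the list was -0.32 without WT 1 and stayed between -0.37 and -0.59 when any other library was left out. With WT 3 and V 3 both left out, an alternative chosen after seeing the data, it was -0.67.

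**Figure D3:**
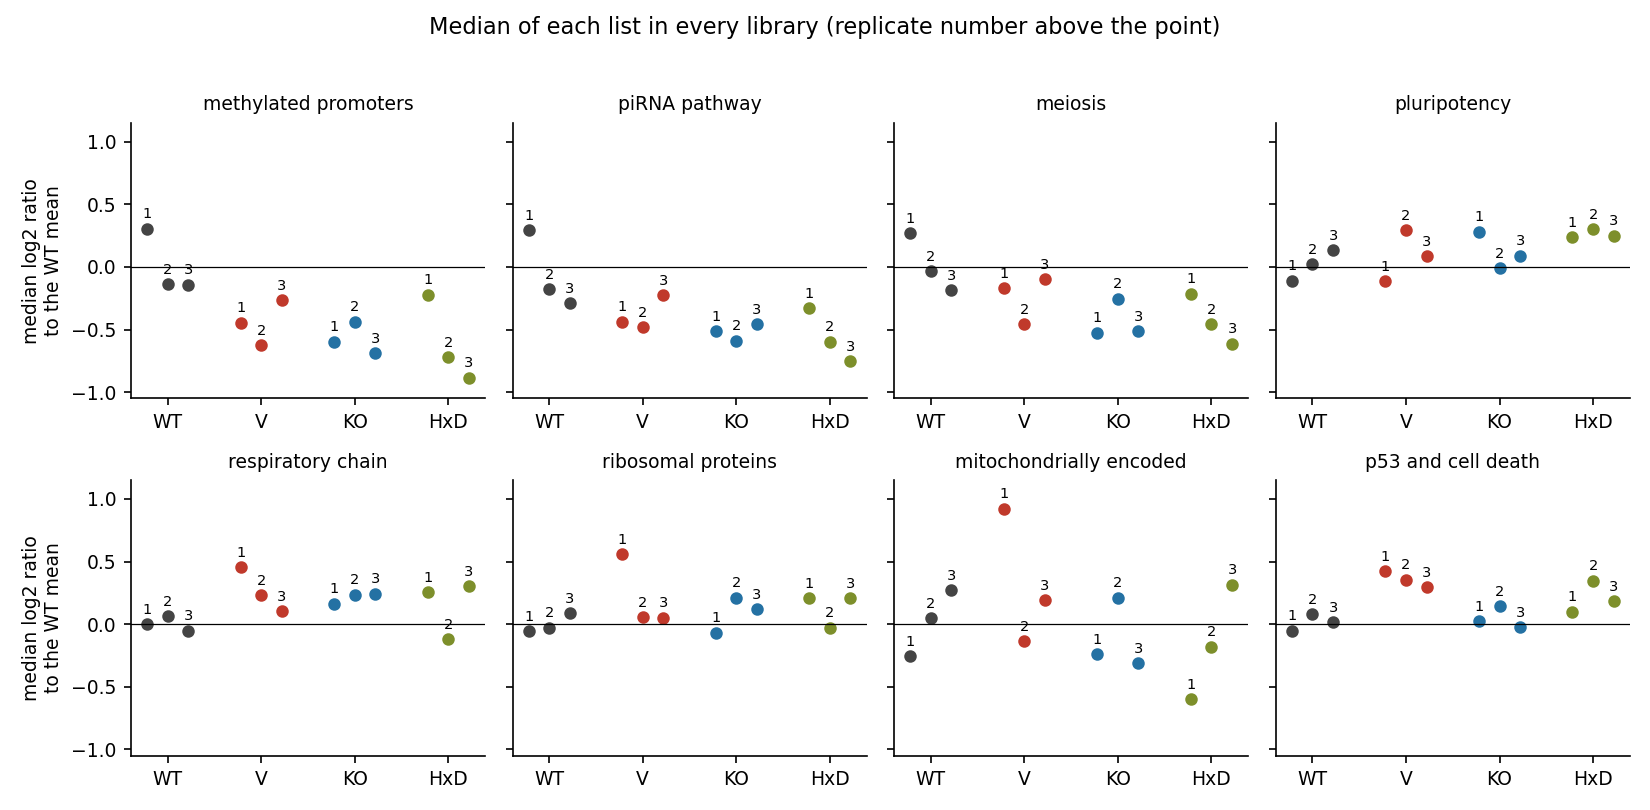
Median log2 ratio of CPM + 1 to the WT mean (vertical axis) for 8 gene lists in each library of the 4 genotypes; the number above a point is the replicate number. For methylated promoters every V library lies below every WT library, and for mitochondrially encoded and ribosomal protein genes V 1 alone lies far above the other V and WT libraries.

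Members of the list that act in meiosis had less even values. Sycp1, a structural protein of the synaptonemal complex that pairs chromosomes, had 137, 75.5 and 45.2 CPM in WT and 37.4, 15.2 and 47.4 in V. WT 3 and V 3 were nearly equal, so the groups overlapped (-1.37, SE 0.41, edgeR adjusted p = 0.551). Its partner Sycp3, weakly transcribed, had 29.3, 18.5 and 34.7 CPM in WT and 9.70, 15.7 and 2.94 in V, without overlap (-1.54, SE 0.68, edgeR adjusted p = 0.789). Smc1b, the meiotic cohesin subunit, had 363, 288 and 335 CPM in WT and 152, 177 and 344 in V, where V 3 stood within the WT range. Of 44 meiosis genes tested, 33 were negative with a median of -0.32, but 3 were nominally lower (3.2% of all genes), 0 nominally higher (2.85%), and 2 of the 44 lay entirely below WT, no more than the 6.06% of all genes that did. The median was -0.54 with WT 3 and V 3 both left out, and ran from -0.23 to -0.54 over all alternatives. The per-library medians of meiosis genes overlapped, with -0.17 in V 1 and -0.10 in V 3, both above the -0.19 of WT 3.

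The piRNA pathway, which shares 9 tested members with the methylated-promoter list, had lower values for 22 of 25 tested genes, with a median of -0.37. Nominal differences were 7 lower and 0 higher, and 7 lay entirely below WT, where 3.2%, 2.85% and 6.06% of all genes did. Mov10l1, the helicase that starts piRNA processing, had 215, 111 and 142 CPM in WT and 83.2, 83.8 and 111 in V (-0.75, SE 0.23, edgeR adjusted p = 0.575). Its V 3 value almost reached WT 2. Piwil2, an Argonaute-family protein that carries piRNAs, had 276, 246 and 253 CPM in WT and 137, 197 and 201 in V, without overlap (-0.54, SE 0.19, edgeR adjusted p = 0.705). Tdrd1, a Tudor scaffold of the germ granule, had 194, 75.4 and 68.3 CPM in WT and 41.1, 28.6 and 76.1 in V, with V 3 within the WT range (-1.22, SE 0.39, edgeR adjusted p = 0.579). The per-library median of the pathway was -0.23 in V 3, above the -0.29 of WT 3, while V 1 and V 2 lay below all WT libraries. The list's median was -0.23 without WT 1, and -0.58 with WT 3 and V 3 both left out.

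Male germ cell fate genes, a list that holds Dazl, Mael, Tex14 and Tdrd1, were negative for 14 of 22 with a median of -0.36, and 5 were nominally lower (3.2% of all genes) and 0 higher (2.85%). Without WT 1 the median was -0.22 and without V 2 it was -0.24. Genes of spermatogonia were negative for 20 of 23, with a median of -0.17 that was -0.21 to -0.33 with 1 library left out, furthest from 0 without WT 2 (-0.33) and without WT 3 (-0.30). Nominally lower were 2 of them (3.2% of all genes). Lin28a, an RNA-binding protein of undifferentiated germ cells, had 399, 337 and 289 CPM in WT and 256, 277 and 252 in V, without overlap (-0.38, SE 0.16, edgeR adjusted p = 0.78). Foxo1, a transcription factor of spermatogonial stem cells, had 255, 214 and 194 CPM in WT and 148, 188 and 169 in V, also without overlap (-0.39, SE 0.19, edgeR adjusted p = 0.82). Among 20 RNA-binding proteins of germ cells, 12 were negative with a median of -0.06, which ran from -0.18 without WT 3 to 0.05 without WT 2 and so has no stable sign. Ybx2, a Y-box protein that stores mRNA, ran the other way with 85.5, 72.7 and 71.5 CPM in WT and 139, 90.5 and 132 in V (0.65, SE 0.21, edgeR adjusted p = 0.579).

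**Figure D4:**
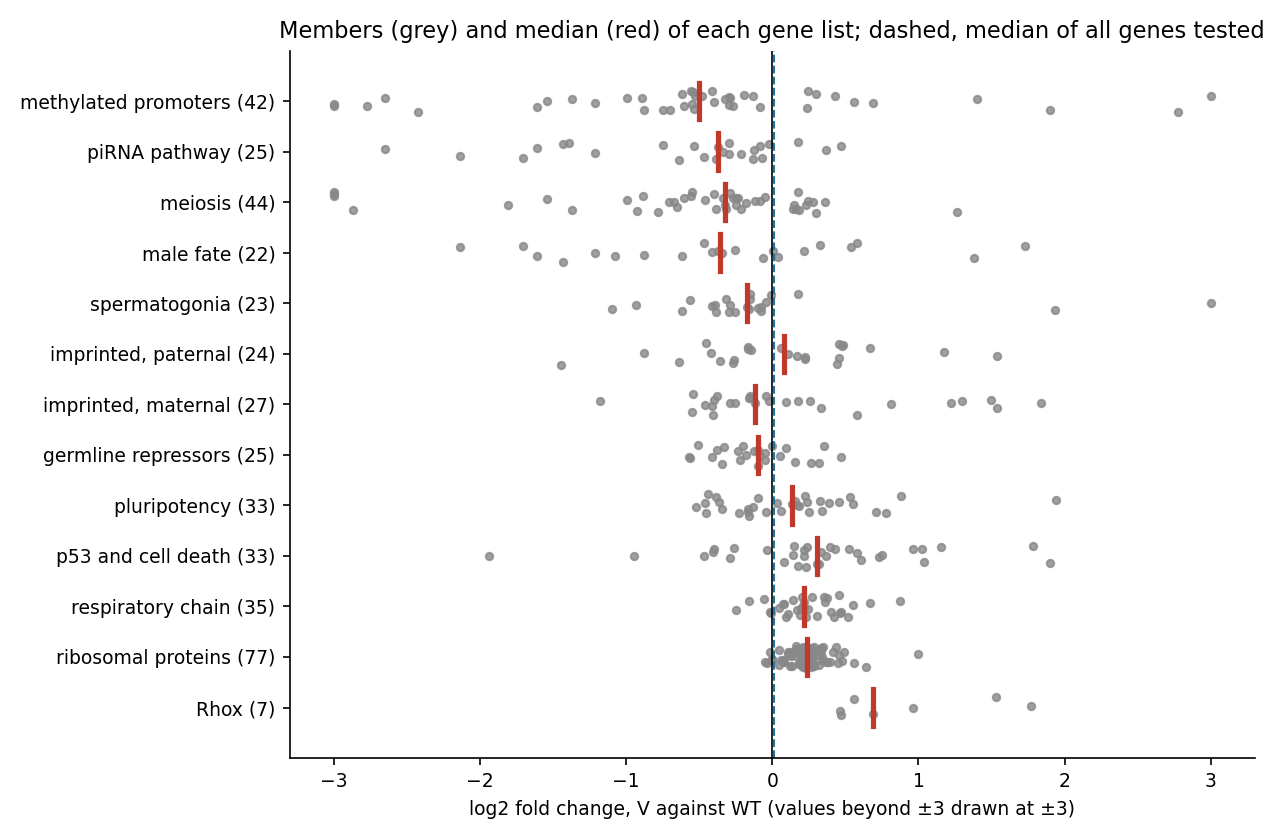
Log2 fold change of V against WT (horizontal axis, values beyond 3 drawn at 3) for the tested members of 13 gene lists (rows, number tested in brackets); grey points are genes, red bars list medians, and the dashed line the median of all genes. The medians run from -0.50 for methylated promoters to 0.69 for Rhox genes.

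The gene with the smallest p of all was outside these germ cell lists. Rb1, which codes for the retinoblastoma protein that holds cells in G1 and is needed for the arrest of fetal male germ cells, had 130.1, 111 and 116 CPM in WT and 46.1, 47.5 and 61.6 in V. The mean was 51.7 ± 8.59 CPM against 119 ± 9.97 (SD, n = 3), and the groups did not overlap (-1.20, SE 0.23, edgeR adjusted p = 0.171). DESeq2 called it (adjusted p = 1.28e-06), as did limma-voom with quality weights, the fit with no low-count filter, the fit with a replicate block and the fit without WT 2, 5 of 15 alternatives in all. It was the single nominal member of the 21 tested genes of G1 arrest, of which 14 were positive, with a median of 0.29 that ran from 0.07 without V 2 to 0.30 without WT 2. Cdkn1a, the p21 inhibitor and a member of this list, had 22.6, 50.3 and 55.7 CPM in WT and 96.7, 63.0 and 32.7 in V, a value chosen after it was seen.

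Other genes among the 12 lower values with the smallest p have varied roles. Dr1, a repressor of the general transcription machinery, had 265, 307 and 225 CPM in WT and 143, 174 and 149 in V, without overlap (-0.77, SE 0.18, edgeR adjusted p = 0.293). Dusp9, a phosphatase of MAP kinases, had 227, 263 and 189.8 CPM in WT and 151, 119.8 and 97.0 in V (-0.88, SE 0.21, edgeR adjusted p = 0.293), and was called in 5 of 15 alternatives. Usp22, a deubiquitinase of the SAGA complex, had 349, 327 and 365 CPM in WT and 165, 225 and 258 in V (-0.69, SE 0.17, edgeR adjusted p = 0.411). Rab3gap2, a regulator of the small GTPases RAB3 and RAB18, had 288, 169 and 244 CPM in WT and 114, 129 and 135 in V (-0.89, SE 0.20, edgeR adjusted p = 0.19). Zfp516 (log2 fold change -0.75), Slc39a6 (-0.80), a zinc transporter, and Ints6 (-0.78), a subunit of the Integrator complex, likewise had every V library below every WT library. Prkca, protein kinase C alpha, had 7.67, 3.59 and 12.4 CPM in WT and no read in V, at least 154-fold lower when 3 counts over the V libraries are taken as the floor (DESeq2 adjusted p = 8.54e-06, edgeR adjusted p = 0.422). The 8 lower genes with the smallest DESeq2 adjusted p are Rb1, Prkca and 6 more without a read in V. Among the V and WT libraries, Prom1, Lrrc6 and Bcas3os1 had reads in WT 3 alone. Dnah12 and Rph3a had none in WT 3, and Egfl6 none in WT 1.

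Of the higher genes, Pou5f1 is the one behind the Oct4 reporter used for the sort. It codes for OCT4, a pluripotency factor that male germ cells turn down around this age, and had 307, 299 and 341 CPM in WT and 529, 591 and 429.6 in V. The groups did not overlap (0.71, SE 0.17, edgeR adjusted p = 0.293; DESeq2 adjusted p = 0.00254). The part of the gate on this reporter in the value was not tested. Dppa5a, an RNA-binding protein of pluripotent cells, had 349, 413 and 421 CPM in WT and 682, 549 and 507 in V (0.55, SE 0.16, edgeR adjusted p = 0.494). Tfap2c, a transcription factor of germ cell specification, had 48.2, 85.0 and 96.3 CPM in WT and 131, 149 and 114 in V (0.78, SE 0.22, edgeR adjusted p = 0.494). Both lay entirely above WT. Prdm1, which acts with Tfap2c in that specification, had 167, 189 and 204 CPM in WT and 122, 143 and 143 in V, entirely below (-0.46, SE 0.18, edgeR adjusted p = 0.757).

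The pluripotency list as a whole was split. Of 33 tested members, 19 were positive and 14 negative, with 5 nominally higher (2.85% of all genes), 3 nominally lower (3.2%) and a median of 0.14. The median was -0.05 without V 2 and 0.05 without WT 1 or WT 3. The per-library medians were -0.12 in V 1, 0.29 in V 2 and 0.08 in V 3, against -0.11 to 0.13 in WT, so V and WT overlapped.

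Ulk1, the kinase that starts autophagy, had 105, 87.8 and 63.1 CPM in WT and 161, 188 and 144 in V. The groups did not overlap (0.94, SE 0.20, edgeR adjusted p = 0.19; DESeq2 adjusted p = 0.000467). Hmgn5, an X-linked nucleosome-binding protein, had 3.56, 15.6 and 22.2 CPM in WT and 37.9, 80.2 and 47.4 in V. It was called in 6 of 15 alternatives, the most of any named gene, with a log2 fold change of 1.55 to 2.67 over all of them (in the main fit 1.999, SE 0.44, edgeR adjusted p = 0.19). Lrrc34, a leucine-rich repeat protein of pluripotent cells, had 7.37, 11.3 and 4.34 CPM in WT and 18.4, 31.0 and 29.2 in V (1.77, SE 0.45, edgeR adjusted p = 0.411). Of 31 lysosome and autophagy genes, 19 were positive and 12 negative with a median of 0.16 that was 0.08 without V 2 and 0.10 without WT 3. Rb1cc1, which codes for FIP200, a partner of ULK1, was lower, with 118, 125 and 128 CPM in WT and 59.2, 87.0 and 114 in V (-0.51, SE 0.24, edgeR adjusted p = 0.82).

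Rhox genes, an X-linked cluster of homeobox genes active in the germ line and known to be methylated in somatic cells, were positive for 7 of 7 tested, with a median of 0.69, and 3 were nominally higher (2.85% of all genes). Rhox6 had 18.0, 31.7 and 2.15 CPM in WT and 26.4, 70.6 and 53.1 in V, where WT 3 was far below the other WT libraries (1.53, SE 0.49, edgeR adjusted p = 0.579). Rhox5 had 154, 232 and 198 CPM in WT and 297, 366 and 196 in V, and V 3 stood within the WT range (0.56, SE 0.19, edgeR adjusted p = 0.705). Rhox9 had 27.2, 75.8 and 55.1 CPM in WT and 59.1, 129 and 67.0 in V, overlapping widely (0.69, SE 0.31, edgeR adjusted p = 0.796). The list's median was 0.57 without WT 3, 1.20 without WT 1, 1.05 without WT 2 and 1.04 without V 3. Rhox5 and Rhox9 belong to the methylated-promoter list as well and are 2 of its 3 nominally higher members. Members of this cluster are similar in sequence, and reads shared between copies could be split by the counting.

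Genes induced by p53 and genes of cell death were positive for 25 of 33, with a median of 0.30. They held 2 nominally higher and 0 lower members, where 2.85% and 3.2% of all genes were, so the nominal count was near the background. Entirely above WT lay 7 members (5.75% of all genes) and entirely below 1 (6.06%). Bax, which permeabilises mitochondria, had 182, 187 and 238 CPM in WT and 279, 282 and 222 in V, with V 3 within the WT range (0.37, SE 0.18, edgeR adjusted p = 0.82). Xpc, a sensor of DNA damage, had 71.2, 75.3 and 46.6 CPM in WT and 87.0, 84.2 and 107 in V (0.52, SE 0.26, edgeR adjusted p = 0.82). The per-library medians were 0.42, 0.35 and 0.30 in V 1, V 2 and V 3 and -0.05 to 0.08 in WT, so every V library was above every WT library. Without each single library the median ran from 0.27 to 0.36, and with WT 3 and V 3 both left out it was 0.43.

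Transcripts of the respiratory chain and the ribosome had mostly positive fold changes, and their medians depended on V 1. Of 35 nuclear respiratory chain genes, 30 were positive with a median of 0.21, 6 were nominally higher (2.85% of all genes) and 0 lower (3.2%), and 11 lay entirely above WT (5.75%). Uqcrfs1, the iron-sulfur subunit of complex III, had 126, 129 and 100.2 CPM in WT and 175, 174 and 216 in V, with V 3 highest (0.67, SE 0.18, edgeR adjusted p = 0.494). Cox5b, a subunit of complex IV, had 78.2, 94.8 and 78.1 CPM in WT and 153, 105 and 110.3 in V, with V 1 highest (0.55, SE 0.21, edgeR adjusted p = 0.718). Of 77 ribosomal protein genes, 72 were positive with a median of 0.24, and 8 were nominally higher (2.85% of all genes) and 0 lower (3.2%). Entirely above WT lay 10 of them (5.75% of all genes). Without V 1 the median was 0.06 for the ribosome and 0.10 for the respiratory chain. The per-library medians of the respiratory chain were 0.45, 0.23 and 0.10 in V 1, V 2 and V 3. Those of WT were -0.05 to 0.06, so every V library was above every WT library. For the ribosome they were 0.56, 0.06 and 0.05 in V, with V 2 and V 3 within the WT range of -0.06 to 0.09. All 8 tested mitochondrially encoded genes were positive with a median of 0.38, which was 0.02 without V 1, and 0 differed nominally. The part of the V 1 library in these results was otherwise not tested.

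Rplp0, a protein of the ribosomal stalk, had the smallest p of its list. It had 535, 645 and 867 CPM in WT and 1642, 1413 and 1022 in V, where V 3 was the closest to WT (0.99, SE 0.20, edgeR adjusted p = 0.19). It has near-identical copies in the genome, and reads shared with them could be split by the counting, so its value is uncertain. Bola2 (log2 fold change 1.01), Mrpl20 (1.07), a mitochondrial ribosomal protein, Rrp9 (0.79), which helps process ribosomal RNA, Tmem184b (0.82) and Atp5j (0.76), a subunit of ATP synthase, completed the 12 higher genes with Gnas. Each of these 5 had all V libraries above all WT libraries.

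Imprinted genes, known in other tissues to be expressed mainly from the maternal or the paternal copy, gave no common direction in V. Their control regions are a known site of TET1 action. The list names refer to the copy used in those tissues, and counts per gene do not show which copy was read here. Of 24 paternally expressed genes tested, 11 were negative and 13 positive, the median was 0.08 and 0 differed nominally. Peg3, a zinc finger protein of the paternal list, had 451, 598 and 516 CPM in WT and 224, 409 and 512 in V, with V 3 within the WT range (-0.45, SE 0.23, edgeR adjusted p = 0.821). Inpp5f had 80.6, 58.0 and 51.4 CPM in WT and 19.4, 46.9 and 55.8 in V, with V 1 lowest and V 3 within the WT range (-0.64, SE 0.34, edgeR adjusted p = 0.833). Of 27 maternally expressed genes, 16 were negative and 11 positive with a median of -0.12, 1 nominally lower (3.2% of all genes) and 1 nominally higher (2.85%). With 1 library left out that median ran from -0.25 to -0.002. The medians turned to -0.07 for the paternal list and 0.06 for the maternal list with WT 3 and V 3 both left out.

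Gnas, the stimulatory G protein subunit, had 96.4, 74.1 and 60.2 CPM in WT and 139, 129 and 136 in V. The V libraries were close to each other and all above WT (0.81, SE 0.22, edgeR adjusted p = 0.48; DESeq2 adjusted p = 0.0164). This locus is known in other tissues to make several transcripts from different copies, which counts per symbol do not separate. Trappc9, a trafficking factor, had 93.3, 80.0 and 67.1 CPM in WT and 55.7, 66.6 and 41.6 in V, entirely below (-0.55, SE 0.26, edgeR adjusted p = 0.82).

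Genes of DNA methylation and its removal were mostly near WT, with 13 negative and 17 positive of 30 tested and a median of 0.07, which was 0.01 to 0.14 with 1 library left out. The de novo methyltransferases Dnmt3a and Dnmt3b each had V libraries entirely below WT. Dnmt3a had 196, 159 and 128 CPM in WT and 121, 116 and 101 in V (-0.51, SE 0.20, edgeR adjusted p = 0.738), and Dnmt3b had 25.9, 38.7 and 22.3 CPM in WT and 11.8, 12.98 and 0 in V (-1.80, SE 0.81, edgeR adjusted p = 0.798). Uhrf2, a relative of the maintenance factor UHRF1 that can bind 5-hydroxymethylcytosine, had 102, 155 and 115 CPM in WT and 176, 180.1 and 171 in V, entirely above (0.50, SE 0.19, edgeR adjusted p = 0.723). Among the 15 TET1 partners, Ogt, the enzyme that adds GlcNAc to proteins, had 251, 252 and 314 CPM in WT and 180.4, 219 and 165 in V (-0.53, SE 0.18, edgeR adjusted p = 0.655). Of the 25 repressors of germ cell genes, 18 were negative with a median of -0.10. Mga, the E-box-binding scaffold of PRC1.6, had 318, 326 and 299 CPM in WT and 204, 199 and 232 in V, entirely below (-0.57, SE 0.19, edgeR adjusted p = 0.632).

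Signalling genes gave values in both directions. Of the 15 Notch pathway genes tested, 7 were negative and 8 positive with a median of 0.09, which was -0.14 without WT 2 and -0.11 without V 1. The receptor Notch1 had 9.12, 19.01 and 1.095 CPM in WT and 17.5, 40.6 and 29.8 in V, where WT 2 overlapped V 1 (1.59, SE 0.52, edgeR adjusted p = 0.632). The receptor Notch3 had 471, 346 and 371 CPM in WT and 301, 172 and 289.6 in V, entirely below (-0.64, SE 0.23, edgeR adjusted p = 0.705). The ligand Dll1 had 7.82, 8.32 and 19.5 CPM in WT and 25.7, 23.8 and 27.5 in V, entirely above (1.11, SE 0.54, edgeR adjusted p = 0.82). Of 20 genes of Nodal and TGF-beta signalling, 14 were negative with a median of -0.24, which ran from -0.05 to -0.33 over the alternatives. In that list 1 gene was nominally lower (3.2% of all genes), 0 were nominally higher (2.85%), and 4 lay entirely below WT (6.06%). Smad4, the shared mediator of these signals, had 180.1, 169.6 and 146 CPM in WT and 95.96, 119.9 and 139 in V (-0.48, SE 0.19, edgeR adjusted p = 0.747).

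Cell cycle and metabolic lists were close to the median of all genes. Mitosis and replication genes were negative for 18 and positive for 19 of 37, with a median of 0.03 and a range of -0.06 to 0.07 with 1 library left out. The replication licensing factor Cdc6 had 38.5, 54.5 and 59.3 CPM in WT and 74.3, 86.2 and 88.7 in V, entirely above (0.71, SE 0.27, edgeR adjusted p = 0.718), while Top2a, the topoisomerase of dividing cells, had 1480.0, 1696 and 1547 CPM in WT and 965, 1264 and 1446 in V, entirely below (-0.36, SE 0.17, edgeR adjusted p = 0.818). Glycolysis genes were negative for 13 and positive for 14 of 27, with a median of 0.06 and a range of -0.05 to 0.12 with 1 library left out. Pfkfb3, which controls the rate of glycolysis, had 152, 129 and 131 CPM in WT and 63.5, 109 and 77.4 in V (-0.72, SE 0.23, edgeR adjusted p = 0.579).

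The 8 higher genes with the smallest DESeq2 adjusted p all had no read in WT. Ttc7 came first (DESeq2 adjusted p = 2.05e-11, edgeR adjusted p = 0.757), with 1.48, 2.22 and 4.62 CPM in V. Defb42 had reads in V 2 alone (3.98 CPM), and Olfr1349 in V 3 alone (7.34 CPM). Tspan7, Snora41 and Fam78a did not exceed 3.53 CPM in any V library. Tmsb4x and Mro complete these 8. Tmsb4x, thymosin beta 4, an actin-binding peptide found in many somatic cells, had no read in WT and 1.61, 16.7 and 13.7 CPM in V, at least 219.6-fold higher with 3 counts over the WT libraries as the floor (DESeq2 adjusted p = 8.16e-10, edgeR adjusted p = 0.494). A trio of Sertoli cell markers were also called by DESeq2. Cst9 had no read in WT and 1.52, 23.6 and 1.76 CPM in V. Its counts pooled over V were at least 215.5-fold higher, but 522 of 580 came from V 2. Mro had 0, 12.3 and 0 CPM in V and none in WT, so its reads in V rest on V 2 alone and no fold is given. Cldn11 had 3.17, 4.66 and 1.61 CPM in V and none in WT (at least 72.8-fold higher, pooled). The edgeR adjusted p was 0.579 for Cst9, 0.774 for Mro and 0.696 for Cldn11. V 2 was the highest V library for each of the 4 genes Tmsb4x, Cst9, Mro and Cldn11. All 4 also had reads in KO and in HxD, with Cldn11 at 3.93, 0 and 2.86 CPM in KO and 4.14, 1.67 and 2.46 in HxD. Over the whole Sertoli list, 12 of 13 tested markers were positive with a median of 2.31, which was 0.42 without V 2, and 5 of the 14 markers had no read in WT. Amh, the hormone of fetal Sertoli cells, was named after its values were seen, with 9.17, 5.78 and 59.6 CPM in WT and 3.398, 216 and 5.80 in V. V 2 and WT 3 stood above the other 4 libraries. Macrophage markers summed to 43.9 CPM in V 2 against 2.36 to 9.21 in the other 5 libraries, with 7 of 12 at 0 in WT. The part of these markers in the other differences of V was not tested, and the methylated-promoter median without V 2 was -0.42.

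V was also set directly against the other mutants, where the WT libraries entered only through the shared estimate of the spread. Against KO, edgeR called 3 of 14702 genes (0.0204%), all higher in V, and 0 lower, with 603 nominal differences (4.1%). The first was Tet1 (log2 fold change 1.17, SE 0.17, edgeR adjusted p = 0.00222), whose levels are given above. Uchl1, a ubiquitin hydrolase of undifferentiated spermatogonia, had 224, 81.6 and 121 CPM in V and 52.2, 47.0 and 27.5 in KO (1.75, SE 0.28, edgeR adjusted p = 0.0038). Epas1, which codes for HIF2A, a transcription factor of the oxygen response, had 47.8, 18.0 and 37.5 CPM in V and 1.41, 6.16 and 6.72 in KO (2.85, SE 0.50, edgeR adjusted p = 0.0164). V and KO did not overlap for any of the 3, and V overlapped WT for Uchl1 (174, 122 and 182 CPM in WT) and Epas1 (37.1, 51.6 and 42.4 CPM in WT). The calls were lost in a fit of the 2 genotypes alone (adjusted p = 0.355, 0.636 and 0.667), that of Uchl1 and Epas1 also under limma-voom (0.192 and 0.613), and that of Epas1 with the stricter filter (0.0514), without KO 1 (0.0754) and without V 3 (0.0587).

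**Figure D5:**
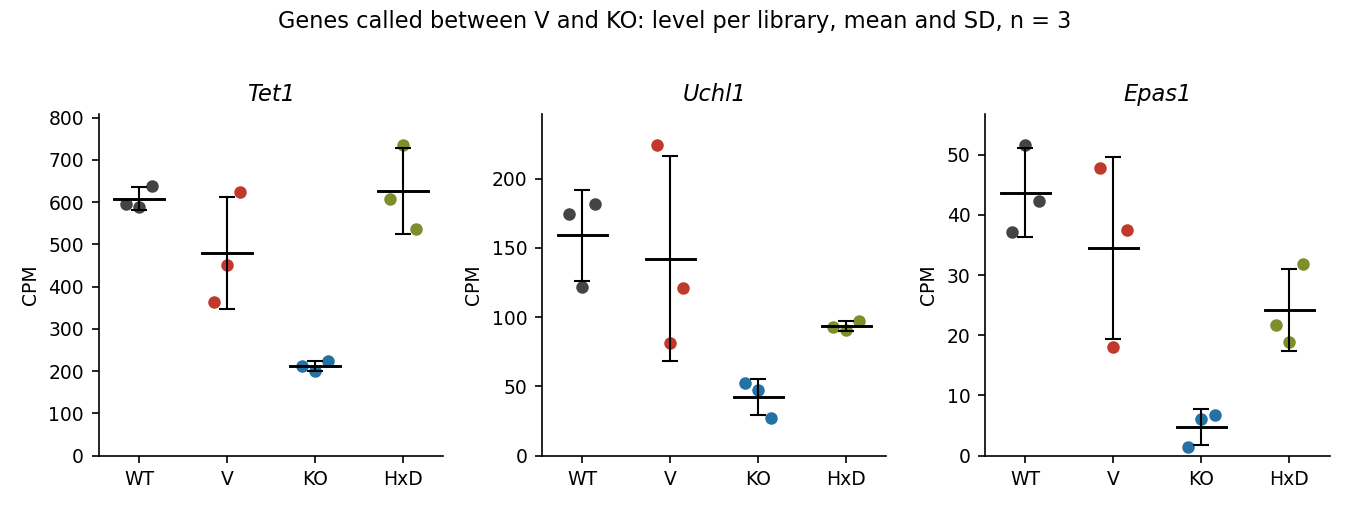
Level in CPM (vertical axis, from 0) of Tet1, Uchl1 and Epas1 in each library of the 4 genotypes; points are libraries, lines means and bars the SD (n = 3). The 3 KO points lie below all V points in each panel.

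Against HxD, edgeR called 0 of 14702 genes (0.0%), with 745 nominal differences (5.07%), 505 higher in V (3.43%) and 240 lower (1.63%), and a smallest adjusted p of 0.514. DESeq2 called 115 genes there and 89 against KO. The lack of calls does not show that the alleles act alike.

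The germ cell genes described above were set against the other mutants in the same way, as log2 fold changes. Dazl differed by 0.17 (95% interval -0.22 to 0.55) from KO and by 0.27 (95% interval -0.12 to 0.65) from HxD. Tex14 differed by 0.14 (95% interval -0.17 to 0.46) from KO and by 0.06 (95% interval -0.26 to 0.37) from HxD, so a difference of more than 0.46 in either direction lay outside both intervals. Mael had higher values in V than in either, with 9.54, 23.9 and 32.9 CPM in KO and 20.2, 19.8 and 8.92 in HxD, by 0.84 (95% interval 0.07 to 1.602) and by 1.27 (95% interval 0.50 to 2.05; edgeR adjusted p = 1.0 and 0.861). Over the 42 methylated-promoter genes, 26 were positive against KO with a median of 0.26, 7 nominally higher and 1 lower, where 2.29% and 1.81% of all genes were. Against HxD, 27 were positive with a median of 0.12, 3 nominally higher and 1 lower (3.43% and 1.63% of all genes). For the 25 piRNA pathway genes the medians were 0.28 against KO, with 4 nominally higher and 0 lower, and 0.15 against HxD, with 1 nominally higher and 0 lower.

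Rb1 had 69.7, 70.4 and 80.6 CPM in KO and 78.2, 64.65 and 56.7 in HxD, all below every WT library. The log2 fold change of V against KO was -0.51 (95% interval -0.98 to -0.04; edgeR adjusted p = 1.0), without overlap. Against HxD it was -0.36 (95% interval -0.83 to 0.10; edgeR adjusted p = 0.875), with V 3 within the HxD range. Pou5f1 was higher in V than in KO by 0.53 (95% interval 0.20 to 0.87; edgeR adjusted p = 0.744), and differed from HxD by 0.16 (95% interval -0.18 to 0.49). Rhox9 had 59.1, 129 and 67.0 CPM in V, 217, 94.4 and 155 in KO and 129, 107 and 161 in HxD, with V 2 within both mutant ranges. It differed by -0.87 (95% interval -1.50 to -0.24) from KO and by -0.64 (95% interval -1.27 to -0.01) from HxD. The Rhox list did not share 1 direction. Of its 7 tested genes, 4 were positive against KO (median 0.36) and 3 against HxD (median -0.33). For Ulk1 the differences were 0.29 (95% interval -0.12 to 0.71) from KO and -0.17 (95% interval -0.58 to 0.24) from HxD, and for Hmgn5 0.50 (95% interval -0.36 to 1.36) and 0.05 (95% interval -0.80 to 0.91). None of these adjusted p-values from edgeR passed the threshold. The genes set against KO and HxD here and in the paragraph before were named for their p against WT. That p used the same V libraries, so these unadjusted intervals are not free of the choice.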

How the data were processed

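RNA-seq libraries of E14.5 male germ cells were counted per gene by the authors, and the deposited values are raw read counts with no normalisation. Software named without settings is FastQC, featureCounts 2.0.3, SAMtools 1.9, STAR 2.7.10b and Trim Galore 0.6.7, per the submitters' processing notes. GRCm39 and mm10 stand there without a role, and the sources used here state neither annotation nor strand setting. A deposited column that names no sample (1 in all) was not used, and the fourth WT library of the labels was not analysed here. Counts were tested with edgeR 4.0.16 in R 4.3.3 (filterByExpr, TMM, quasi-likelihood F-test, genotype as the only term, 12 libraries, Benjamini-Hochberg adjustment over 14702 genes, threshold 0.05), after a check on simulated data. The SE is the absolute log2 fold change over the root of F. DESeq2 1.42.0, limma 3.58.1 (voom with quality weights), sva 3.50.0, other scaling, filters, a replicate block and leaving libraries out were alternatives. Named genes are Tet1, the 12 with the smallest p in each direction, the 8 with the smallest DESeq2 adjusted p among its calls in each direction, the 4 called with the smallest p in each direction against KO or HxD, and the 4 nominal members with the smallest p of each list (2 where none was nominal), without predicted gene models. The comparison and all 34 gene lists were chosen with earlier results of these data known. Of 731 listed symbols 728 were found and 637 tested. Counting intervals and bounds cover counting error only.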

Additional observations from a re-analysis of the deposited data

How the results depend on the processing

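The 0 genes called between V and WT became 81 with DESeq2, 9 with limma-voom, 32 with no low-count filter and 8 with a replicate block, and 0 to 10 with a library left out. It stayed 0 with DESeq2's size factors in edgeR, 1 surrogate variable, the stricter filter, the 2 genotypes alone, and with WT 3 and V 3 both left out, an alternative chosen after seeing the data. Nominal genes numbered 1337 with limma-voom, against 890. With WT 3 and V 3 left out the median log2 fold change was -0.066 for paternally expressed genes (-0.0651 to 0.155 with 1 library left out), 0.0555 for maternally expressed genes and 0.43 for p53 genes. Against KO, 3 calls became 89 with DESeq2, 21 with no filter, 0 with the 2 genotypes alone, 16 with the block and 2 to 18 with a library left out. Against HxD, 0 became 115, 5 with no filter, 2 with the block and 0 to 11 with a library left out. Among 123 named genes, direction turned for Usp9y against WT (1.19 with the block, -6.64 to 3.56 with a library left out), Uchl1 against WT (0.0468 without WT 3 and V 3, -0.64 to 0.12 with 1 left out) and Cx3cr1 (-1.13 with the block). Dazl against KO was -0.02521 with limma-voom and -0.00859 to 0.37 with a library left out. The cause was not tested. Same-numbered V and WT libraries deviated together with r = 0.0649, 0.0342 and 0.071 across genes. Differently numbered V and WT libraries had lower values, -0.0641 to 0.00857, but KO 2 and WT 1 reached 0.113. These values do not settle whether the numbers pair libraries. No label states a pairing, so the main fit has none, and the replicate block is given as an alternative. Among log2 fold changes of named genes, 1816 values under alternatives kept their direction and side of the threshold, 100 passed it anew, 8 no longer passed it and 7 turned. The depth of V 3 (13584484 counts) limits low genes.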
